A study of Mus musculus with 8 samples.

Results

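The 48 genes described here act in the cell division cycle, and they were chosen by name from 8 RNA-seq libraries of mouse osteoblastic cells. Of these, 22 act in mitosis or mark it, 11 form the DNA replication group (helicase, clamp and nucleotide synthesis genes, with E2f1, a transcription factor that switches on such genes), 8 are cyclins and cyclin-dependent kinases (CDKs) of the G1 and S phases, and 7 are CDK inhibitors or tumour suppressors. All 48 were found among the 51822 gene symbols of the files, and all 48 were among the 12514 genes tested, that is, genes with at least 1 RPKM in at least 2 libraries. RPKM divides the reads of a gene by its length and by the depth of the library.

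The sample labels named the cells MC3T3-E1, an osteoblastic line derived from mouse calvaria, whereas the design text of the series named calvarial cells. All cultures were kept in osteogenic medium with fetal bovine serum, ascorbic acid, dexamethasone and β-glycerophosphate. They received either the vehicle DMSO (control) or 1 µM LAMZ, an aminoindazole compound also called locamidazole, and were harvested on day 7 or day 14 of culture. Each of the 4 groups held 2 libraries. The labels did not say that these came from separate cultures, so p-values measure only the spread between libraries, which may be technical. Each group enters more than 1 comparison, so the comparisons are not independent of each other.

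The depth recovered from the RPKM steps was 3446227 to 5837310 mapped reads per library, and the correlation of log2(RPKM + 1) between the 2 libraries of a group was 0.961 to 0.98. All 12 osteoblast markers were tested, with summed levels of 9655 to 11140 RPKM in day 7 control and 13260 to 13760 in day 7 LAMZ. At day 14 the sums were 13650 to 13920 in control and 20650 to 22440 in LAMZ. Most of each sum came from Col1a1, Col1a2 and Sparc, with means over all libraries of 6736, 3197 and 2897 RPKM. The 18 macrophage markers summed to 495.9 to 650.2 RPKM in day 7 control and 1245 to 1262 in day 14 control, but to 7.85 to 9.97 in the 4 LAMZ libraries. Control libraries therefore held RNA of macrophage markers that LAMZ libraries nearly lacked, with C1qa and C1qb, which encode chains of complement C1q, listed at 0 in all 4 LAMZ libraries. In bulk RNA, fewer cells of a type and less RNA per cell cannot be told apart, and every level below is a share of its library. The value column of day 7 LAMZ replicate 1 had a header that names neither LAMZ nor control in the way of the other 7, and its group was taken from the sample title. In that library the macrophage marker Lyz2 was at 8.20 RPKM and the osteoblast marker Dmp1 at 85.5. These levels were near those of day 7 LAMZ replicate 2 (6.27 and 86.2). In day 7 control Lyz2 was at 312 and 409 RPKM and Dmp1 at 5.57 and 8.25. Without that library the counts of the 48 genes called were 0 for LAMZ at day 7 and 7 at day 14, and 13 in control and 29 in LAMZ with time, beside 3, 9, 23 and 36 with it.

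A dividing cell copies its DNA in S phase and separates the copies in mitosis, and many of the genes used are transcribed mainly around the time of need. D-type cyclins with Cdk4 and Cdk6, then E-type cyclins with Cdk2, phosphorylate the retinoblastoma protein and release E2F factors, which switch on the replication genes, whereas the mitotic genes are switched on later through promoter elements called CHR and CCAAT boxes. CDK inhibitors such as p21, the product of Cdkn1a, oppose these kinases, and osteoblast progenitors leave the cycle as they mature into matrix-producing cells.

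From day 7 to day 14 the mitotic and replication genes were lower in both cultures. Few of the 48 genes were called for LAMZ against control at either time with the deposited values. In control, 23 of the 48 were lower at day 14 and 0 were higher in limma, against 2.4% and 2.46% of all tested genes (4.86% in either direction). In LAMZ, 36 of the 48 were lower and 0 higher, against 9.26% and 5.1% of all tested genes (14.4%). All 23 genes called in control were among the 36 called in LAMZ. LAMZ against control gave 2 higher genes and 1 lower gene at day 7, against 4.35% and 8.49% of all tested genes (12.8%). At day 14 it gave 1 higher and 8 lower, against 6.96% and 16% (23%). At an unadjusted p under 0.05 in limma there were 7 of the 48 at day 7, beside 28% of all tested genes. At day 14 there were 20, beside 36.7%. The calls at both times depended on the scaling, as given below.

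**Figure D1:**
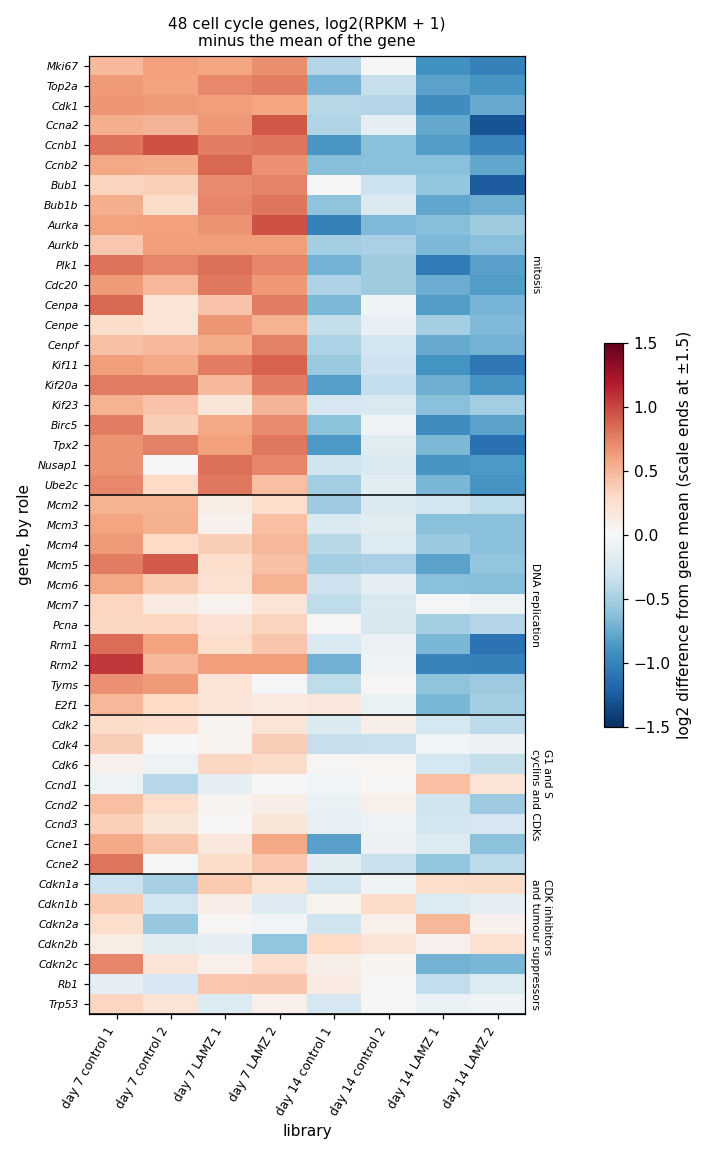
Heat map of the 48 genes (rows, ordered by role) in the 8 libraries (columns), where the colour gives log2(RPKM + 1) minus the mean of that gene over the libraries. The mitosis and DNA replication rows are mostly red in the 4 day 7 libraries, with Tyms just below its mean in day 7 LAMZ replicate 2, and mostly blue in the 4 day 14 libraries, and the rows of the other roles show paler and less ordered colours.

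The summed level of the 22 mitotic genes was 210.1 and 196.5 RPKM in day 7 control and 216.2 and 223.7 in day 7 LAMZ. At day 14 the sum was 76.8 and 94.9 RPKM in control and 64.8 and 60.2 in LAMZ. All 22 genes had both day 14 libraries below both day 7 libraries, in control and in LAMZ. Over all 48 genes, this was so for 41 in control and 42 in LAMZ, against 28.5% and 41.4% of all tested genes, while 4 and 3 of the 48 had both day 14 libraries above, against 21% and 21.4%.

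Mki67, which encodes the proliferation marker Ki-67, was at 7.83 and 8.64 RPKM in day 7 control, 8.53 and 9.20 in day 7 LAMZ, 3.67 and 5.21 in day 14 control and 2.35 and 2.12 in day 14 LAMZ. Both day 14 groups were below both day 7 groups, and at day 14 the LAMZ libraries were below the control libraries. The day 14 to day 7 log2 fold change (log2FC, of RPKM + 1, with its SE) was -0.78 ± 0.16 (adjusted p = 0.0351) in control and -1.61 ± 0.16 (adjusted p = 0.000997) in LAMZ, in limma with Benjamini-Hochberg adjustment over all tested genes. The call in control was held in 8 of 18 alternative settings. Top2a, a topoisomerase that untangles DNA before chromosomes separate, was at 12.2 and 11.9 RPKM in day 7 control, 12.98 and 13.5 in day 7 LAMZ, 4.24 and 5.69 in day 14 control and 3.86 and 3.59 in day 14 LAMZ. Its log2FC with time was -1.14 ± 0.14 (adjusted p = 0.00798) in control and -1.59 ± 0.14 (adjusted p = 0.000745) in LAMZ.

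Cdk1 is the kinase that drives entry into mitosis, and it was at 11.6 and 11.4 RPKM in day 7 control, 11.2 and 10.9 in day 7 LAMZ, 4.94 and 4.84 in day 14 control and 3.16 and 3.70 in day 14 LAMZ. Cyclin B1, its partner encoded by Ccnb1, showed 12.01 and 13.3 RPKM in day 7 control, 11.6 and 11.9 in day 7 LAMZ, 3.05 and 3.78 in day 14 control and 3.13 and 2.72 in day 14 LAMZ. Ccnb2, the second B-type cyclin, stood at 18.4 and 18.1 RPKM in day 7 control, 22.5 and 19.9 in day 7 LAMZ, 7.30 and 7.37 in day 14 control and 7.39 and 6.56 in day 14 LAMZ. In all 3, both day 14 groups lay below both day 7 groups. In control, their log2FC was -1.08 ± 0.11 (adjusted p = 0.00589) for Cdk1, -1.63 ± 0.13 (adjusted p = 0.00273) for Ccnb1 and -1.21 ± 0.12 (adjusted p = 0.00457) for Ccnb2. Ccna2, which encodes the cyclin of S and G2 phases, was at 9.74 and 9.48 RPKM in day 7 control, 10.6 and 13.1 in day 7 LAMZ, 4.38 and 5.69 in day 14 control and 3.32 and 2.01 in day 14 LAMZ. Its change with time was not called in control, at -0.82 ± 0.20 (adjusted p = 0.0585), and was -1.82 ± 0.20 (adjusted p = 0.00159) in LAMZ.

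The kinases of the spindle poles and of the chromosomes moved with these genes. Plk1, which acts in spindle assembly and in the exit from mitosis, was at 15.1 and 14.2 RPKM in day 7 control, 15.1 and 14.2 in day 7 LAMZ, 4.57 and 5.33 in day 14 control and 3.43 and 4.19 in day 14 LAMZ. Aurka, the kinase of the spindle poles, was at 7.23 and 7.30 RPKM in day 7 control, 7.69 and 9.56 in day 7 LAMZ, 1.69 and 2.45 in day 14 control and 2.51 and 2.75 in day 14 LAMZ. Aurkb, the kinase of the chromosomal passenger complex, was at 5.31 and 6.37 RPKM in day 7 control, 6.37 and 6.32 in day 7 LAMZ, 2.34 and 2.40 in day 14 control and 1.98 and 2.09 in day 14 LAMZ. All 3 were called lower at day 14 in control and in LAMZ, and Aurka was the single mitotic gene whose day 14 LAMZ libraries both exceeded the control libraries, without a call (log2FC 0.25 ± 0.16, adjusted p = 0.291). Birc5, the survivin subunit of the same passenger complex, was at 8.03 and 5.86 RPKM in day 7 control, 6.96 and 7.67 in day 7 LAMZ, 2.46 and 4.10 in day 14 control and 1.76 and 2.05 in day 14 LAMZ. Its decrease was called in LAMZ, at -1.52 ± 0.21 (adjusted p = 0.00397), and missed the threshold in control, at -0.91 ± 0.21 (adjusted p = 0.0508).

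The next genes act in the spindle checkpoint and in the complex that it restrains, the anaphase-promoting complex (APC/C). Cdc20, the APC/C activator, had the highest mean level of the 22 genes and was at 23.1 and 21.0 RPKM in day 7 control, 25.9 and 23.4 in day 7 LAMZ, 10.3 and 9.71 in day 14 control and 8.26 and 7.68 in day 14 LAMZ. Ube2c, the ubiquitin-conjugating enzyme of the APC/C, was at 8.98 and 6.44 RPKM in day 7 control, 9.47 and 7.31 in day 7 LAMZ, 3.22 and 4.42 in day 14 control and 2.77 and 2.29 in day 14 LAMZ, with a log2FC with time of -0.85 ± 0.20 (adjusted p = 0.0554) in control and -1.41 ± 0.20 (adjusted p = 0.00444) in LAMZ. Cdc20 was called lower at day 14 in both cultures and Ube2c in LAMZ. Bub1b, which encodes the checkpoint protein BubR1, was at 7.01 and 5.67 RPKM in day 7 control, 8.12 and 8.58 in day 7 LAMZ, 2.61 and 3.73 in day 14 control and 2.21 and 2.30 in day 14 LAMZ. In Bub1b the LAMZ libraries were the highest at day 7 and the lowest at day 14, and Bub1, the checkpoint kinase gene, had the same order. Bub1 was at 2.99 and 3.05 RPKM in day 7 control, 4.15 and 4.28 in day 7 LAMZ, 2.14 and 1.52 in day 14 control and 1.10 and 0.329 in day 14 LAMZ, with as few as about 7 reads in the lowest library, and its fall with time was called in LAMZ (-1.64 ± 0.22, adjusted p = 0.00387) and not in control (-0.51 ± 0.22, adjusted p = 0.230).

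Among the kinetochore genes, Cenpa, the centromeric form of histone H3, was at 12.3 and 7.37 RPKM in day 7 control, 8.80 and 11.6 in day 7 LAMZ, 3.57 and 6.002 in day 14 control and 3.08 and 3.52 in day 14 LAMZ. Cenpe, a kinesin of the kinetochore, was at 2.46 and 2.29 RPKM in day 7 control, 3.51 and 3.09 in day 7 LAMZ, 1.22 and 1.62 in day 14 control and 0.997 and 0.811 in day 14 LAMZ. Cenpf, a large kinetochore protein, was at 2.64 and 2.77 RPKM in day 7 control, 2.96 and 3.55 in day 7 LAMZ, 0.936 and 1.21 in day 14 control and 0.589 and 0.650 in day 14 LAMZ. The 2 control libraries of Cenpa lay far apart at day 7, and the genes Cenpa and Cenpe were called lower with time in LAMZ alone, although their difference between cultures was not called. The motor and spindle genes also had both day 14 groups below both day 7 groups. Kif11, the motor that pushes the spindle poles apart, was at 5.67 and 5.39 RPKM in day 7 control, 6.37 and 6.97 in day 7 LAMZ, 1.93 and 2.48 in day 14 control and 1.32 and 1.06 in day 14 LAMZ. Tpx2, a spindle assembly factor, was at 12.6 and 13.5 RPKM in day 7 control, 12.03 and 13.8 in day 7 LAMZ, 3.70 and 6.53 in day 14 control and 4.36 and 2.93 in day 14 LAMZ. Nusap1, a spindle microtubule protein, was at 4.84 and 2.70 RPKM in day 7 control, 5.49 and 5.06 in day 7 LAMZ, 1.97 and 2.13 in day 14 control and 0.972 and 1.01 in day 14 LAMZ. Of these, Kif11 and Tpx2 were called lower in control and all 3 in LAMZ. The cytokinesis motors Kif20a and Kif23 were called lower with time in both cultures. In control the call of Kif23 was held in 5 of 17 alternative settings and that of Kif20a in 16 of 18. Kif20a was at 16.2 and 16.3 RPKM in day 7 control, 13.03 and 16.1 in day 7 LAMZ, 4.66 and 6.76 in day 14 control and 5.06 and 4.43 in day 14 LAMZ, and 29.3% of its exon length overlaps Cdc23 on the other strand. Kif23 was at 3.92 and 3.62 RPKM in day 7 control, 2.90 and 3.87 in day 7 LAMZ, 1.88 and 1.92 in day 14 control and 1.22 and 1.39 in day 14 LAMZ.

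**Figure D2:**
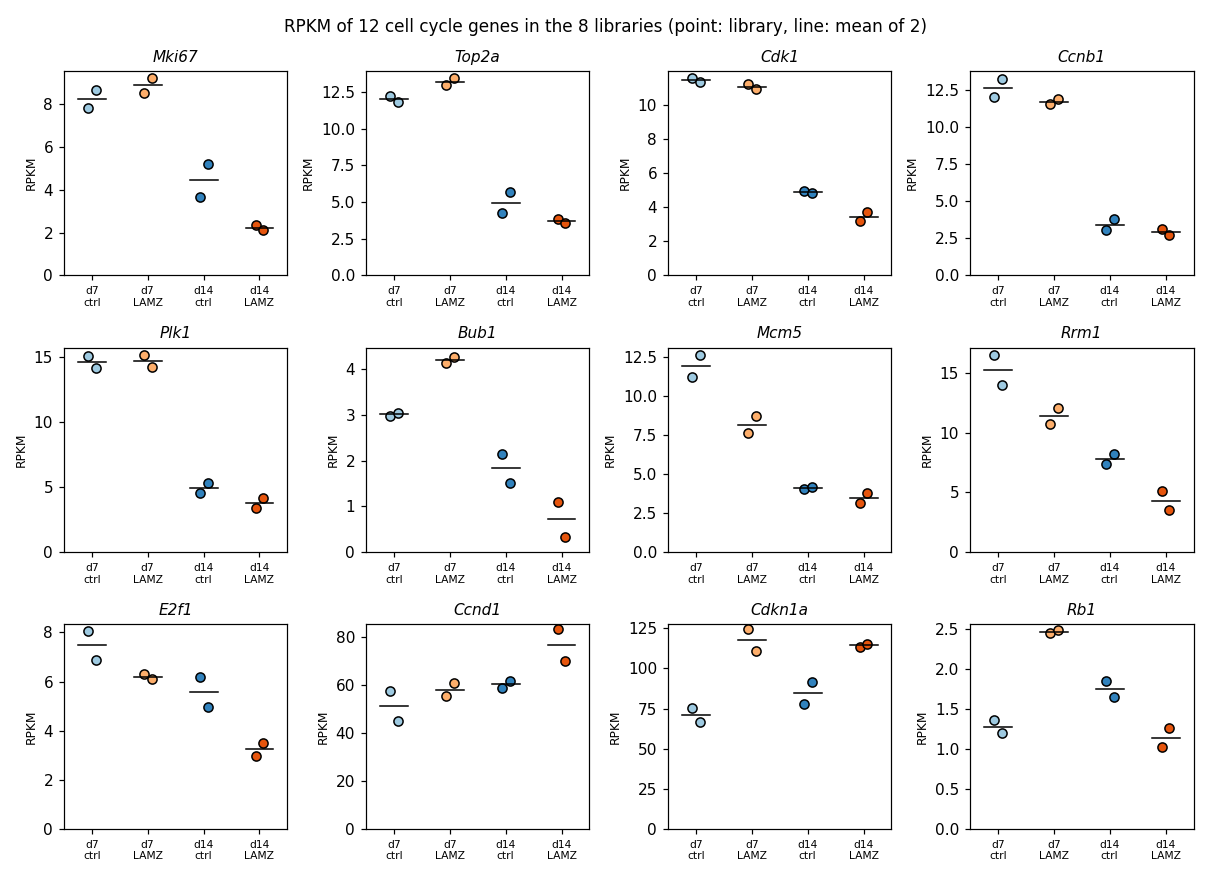
RPKM of 12 of the genes on linear axes that start at 0, 1 panel a gene, with 1 point for each library and a line at the mean of the 2 libraries of a group (d7, day 7; d14, day 14; ctrl, control). In the panels of Mki67, Top2a, Cdk1, Ccnb1, Plk1 and Mcm5 both day 14 groups lie below both day 7 groups, and the panels of Ccnd1 and Cdkn1a do not show this order.

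Promoter sequences are shown for these genes because they were low together at day 14. RefSeq windows on build GRCm38.p6, from 250 bases before to 50 bases after a transcript start, were matched by symbol for 39 of the 48 genes (44 windows). Windows of Aurkb, Ccna2, Ccnd1, Ccnd2, Ccne2, Kif20a, Mcm4, Rb1 and Tpx2 were not used here. The CHR was searched as TTTGAA or TTCGAA and the CCAAT box as CCAAT, on both strands. CHR letters were present in 14 of the 18 windows of mitotic genes (77.8%), in 2 of the 11 windows of replication genes (18.2%) and in 19.2% of all 32851 windows. CCAAT letters were present in 16 of the 18 mitotic windows (88.9%), in 9 of the 11 replication windows (81.8%) and in 37.4% of all windows. A match is a description of the letters and not a measured site. The 160 bases before the RefSeq start follow for 4 mitotic genes, read 5′ to 3′ on the strand of the gene, with CHR and CCAAT letters of either strand in capitals. They lie at chr10:69352913-69353072 for Cdk1, chr4:118437344-118437503 for Cdc20, chr7:135716380-135716539 for Mki67 and chr11:99024190-99024349 for Top2a, all on the minus strand.
Cdk1: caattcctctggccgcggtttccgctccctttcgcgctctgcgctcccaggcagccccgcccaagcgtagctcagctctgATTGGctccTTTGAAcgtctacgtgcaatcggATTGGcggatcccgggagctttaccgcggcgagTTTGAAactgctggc
Cdc20: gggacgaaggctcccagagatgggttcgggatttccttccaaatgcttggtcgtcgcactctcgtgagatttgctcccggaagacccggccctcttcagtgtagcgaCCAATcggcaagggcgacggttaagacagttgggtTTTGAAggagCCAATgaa
Mki67: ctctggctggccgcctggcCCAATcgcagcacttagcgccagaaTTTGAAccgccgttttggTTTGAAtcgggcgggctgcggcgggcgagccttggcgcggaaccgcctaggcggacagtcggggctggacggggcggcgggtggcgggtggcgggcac
Top2a: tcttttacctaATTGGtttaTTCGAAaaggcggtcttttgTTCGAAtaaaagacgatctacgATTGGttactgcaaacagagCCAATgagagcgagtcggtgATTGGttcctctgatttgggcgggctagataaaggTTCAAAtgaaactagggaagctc

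**Figure D3:**
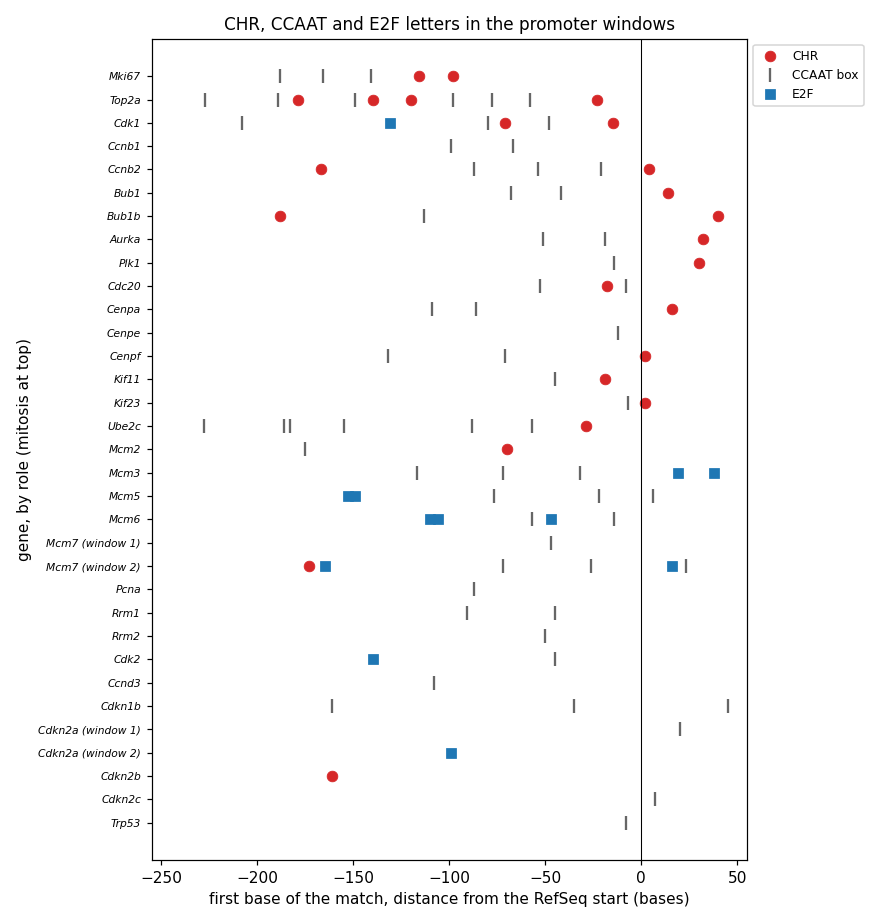
Positions of CHR (circles), CCAAT (bars) and E2F (squares) letters in RefSeq promoter windows, where the horizontal axis gives the distance of the first matching base from the RefSeq start in bases and each row is a window that holds at least 1 match. CHR letters lie in mitotic rows at the top and in the rows of Mcm2, Mcm7 and Cdkn2b, and E2F letters lie in the rows of Mcm3, Mcm5, Mcm6, Mcm7, Cdk1, Cdk2 and Cdkn2a.

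The replication genes were lower at day 14 as well. Their summed level was 142 and 124.3 RPKM in day 7 control, 108 and 118.7 in day 7 LAMZ, 70.3 and 76.3 in day 14 control and 55.4 and 54.8 in day 14 LAMZ. In control 8 of the 11 were called lower at day 14, with a median log2FC of -0.78 over the 11, beside 15 of the 22 mitotic genes with a median of -0.96 and a median of -0.05 over all tested genes. In LAMZ 10 of the 11 were called lower with a median of -0.88, beside 22 of 22 mitotic genes with a median of -1.52 and a median of -0.11 over all tested genes.

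**Figure D4:**
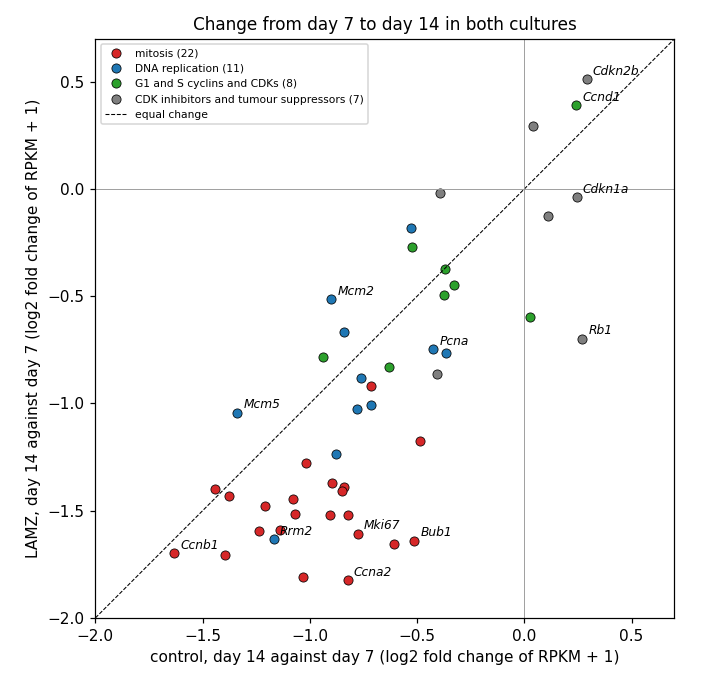
Log2FC of RPKM + 1 from day 7 to day 14 in control (horizontal axis) and in LAMZ (vertical axis) for the 48 genes, coloured by role, with a dashed line where both changes are equal. Of the 22 mitotic genes 21 lie below the line, with changes of -0.92 to -1.82 in LAMZ, and the Mcm genes lie on both sides of it.

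Mcm2 to Mcm7 encode the 6 subunits of the replicative helicase. Mcm5 showed the largest decrease with time among them in control and was at 11.2 and 12.7 RPKM in day 7 control, 7.63 and 8.75 in day 7 LAMZ, 4.06 and 4.16 in day 14 control and 3.14 and 3.80 in day 14 LAMZ. Its log2FC was -1.34 ± 0.13 (adjusted p = 0.00487) in control and -1.04 ± 0.13 (adjusted p = 0.00288) in LAMZ. Mcm2 was at 9.16 and 9.17 RPKM in day 7 control, 6.69 and 7.54 in day 7 LAMZ, 3.87 and 5.09 in day 14 control and 4.89 and 4.46 in day 14 LAMZ. Mcm3 was at 10.6 and 10.1 RPKM in day 7 control, 7.00 and 9.43 in day 7 LAMZ, 5.56 and 5.82 in day 14 control and 3.96 and 3.95 in day 14 LAMZ. The 2 LAMZ groups of Mcm3 lay below the control groups of the same day. Mcm4 was at 10.9 and 8.37 RPKM in day 7 control, 8.82 and 9.73 in day 7 LAMZ, 4.72 and 5.61 in day 14 control and 4.16 and 3.94 in day 14 LAMZ. Mcm6 was at 8.41 and 7.24 RPKM in day 7 control, 6.33 and 7.98 in day 7 LAMZ, 4.07 and 4.69 in day 14 control and 3.05 and 3.03 in day 14 LAMZ. For Mcm2 to Mcm6, both day 14 groups lay below both day 7 groups, and all 5 were called lower in both cultures. The call of Mcm2 in LAMZ (adjusted p = 0.0469) was held in 5 of 18 alternative settings, and in control that of Mcm6 was held in 7 and those of Mcm3 and Mcm4 in 9. Mcm7 was at 10.2 and 8.81 RPKM in day 7 control, 8.26 and 9.28 in day 7 LAMZ, 5.89 and 6.65 in day 14 control and 7.79 and 7.45 in day 14 LAMZ and was called in neither culture, with log2FC of -0.53 ± 0.13 (adjusted p = 0.0566) in control and -0.18 ± 0.13 (adjusted p = 0.370) in LAMZ.

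E2F letters, searched on both strands as TTTCCCGC, TTTGGCGC, TTTCGCGC or TTTGCCGC, were present in 4 of the 11 windows of replication genes (36.4%), in 1 of the 18 of mitotic genes (5.6%) and in 2.3% of all windows. The windows of Mcm5, at chr8:75109349-75109508 on the plus strand, and Mcm6, at chr1:128359706-128359865 on the minus strand, are shown because both hold E2F letters on the 2 strands that overlap each other. E2F and CCAAT letters are in capitals.
Mcm5: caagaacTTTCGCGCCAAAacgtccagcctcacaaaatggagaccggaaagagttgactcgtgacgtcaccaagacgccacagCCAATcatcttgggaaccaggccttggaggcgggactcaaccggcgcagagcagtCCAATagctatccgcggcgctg
Mcm6: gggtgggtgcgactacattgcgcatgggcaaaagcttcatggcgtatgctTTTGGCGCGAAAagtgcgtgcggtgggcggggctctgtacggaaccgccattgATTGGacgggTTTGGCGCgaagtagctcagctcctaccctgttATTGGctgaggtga
The E2F letters of the Cdk1 window printed earlier, TTTCGCGC on the strand of the gene, were left in lower case there.

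Pcna, the sliding clamp of the DNA polymerases, had the highest mean level of the replication genes and was at 24.1 and 24.3 RPKM in day 7 control, 22.5 and 24.5 in day 7 LAMZ, 19.5 and 16.2 in day 14 control and 13.2 and 13.9 in day 14 LAMZ. It was called lower with time in LAMZ (-0.75 ± 0.12, adjusted p = 0.00786) but not in control (-0.42 ± 0.12, adjusted p = 0.0938), and its annotated pseudogenes could share its reads. Rrm1 and Rrm2 encode the subunits of ribonucleotide reductase, which makes deoxyribonucleotides. Rrm1 was at 16.5 and 14.0 RPKM in day 7 control, 10.7 and 12.1 in day 7 LAMZ, 7.37 and 8.23 in day 14 control and 5.08 and 3.54 in day 14 LAMZ. Rrm2 was at 29.3 and 19.3 RPKM in day 7 control, 21.4 and 21.5 in day 7 LAMZ, 7.80 and 12.9 in day 14 control and 6.25 and 6.21 in day 14 LAMZ, with control libraries that lay far apart on both days. Tyms, the thymidylate synthase gene, was at 3.70 and 3.56 RPKM in day 7 control, 2.39 and 1.89 in day 7 LAMZ, 1.25 and 1.96 in day 14 control and 0.929 and 1.01 in day 14 LAMZ. All 3 were called lower with time in both cultures, and the calls of Tyms were held in only 4 of the 17 alternative settings in either culture. In control the call of Rrm2 was held in 8 of 18 settings and that of Rrm1 in 11 of 18. E2f1, the transcription factor of the G1/S transition, was at 8.07 and 6.87 RPKM in day 7 control, 6.32 and 6.09 in day 7 LAMZ, 6.2 and 4.98 in day 14 control and 2.99 and 3.51 in day 14 LAMZ, and was called lower with time in LAMZ (-0.76 ± 0.14, adjusted p = 0.0122) but not in control (-0.37 ± 0.14, adjusted p = 0.186).

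Few of the cyclins and CDKs of G1 and S phase were called. Of the 8 genes, 0 passed the test with time in control and 2 were lower in LAMZ, and their median log2FC was -0.37 and -0.47. At an unadjusted p under 0.05 in limma, in either direction, there were 6 in control and 7 in LAMZ, beside 21.8% and 31.7% of all tested genes. Both day 14 libraries lay below both day 7 libraries for 6 in control and 7 in LAMZ, beside 28.5% and 41.4%. They lay above for 1 in each culture, beside 21% and 21.4%. Ccnd1, the cyclin D1 gene, had the highest mean level and was at 57.3 and 44.9 RPKM in day 7 control, 55.3 and 60.9 in day 7 LAMZ, 58.9 and 61.6 in day 14 control and 83.3 and 70.0 in day 14 LAMZ. It had both day 14 libraries above both day 7 libraries in each culture, without a call (log2FC 0.24 ± 0.15, adjusted p = 0.395, in control and 0.39 ± 0.15, adjusted p = 0.121, in LAMZ). Of its exon length, 23.4% overlaps LTO1 on the other strand. The strand setting of the counting was not given in the sources used here, so levels of Ccnd1 and Kif20a are uncertain, as are those of Ube2c (22.8% shared with Tnnc2), Cdk4 (19.7% with Tspan31), Ccne2 (17.4% with Ints8) and Ccna2 (12.5% with Exosc9). Levels of Rb1 (8.1% shared with Rcbtb2 and 6.8% with Lpar6) and Mcm7 (7.3% with Ap4m1) are uncertain in the same way. Ccnb1, Ccnb2, Ccnd3, Tyms and Trp53 have annotated pseudogenes that could share reads. Ccnd2, the cyclin D2 gene, was at 49.6 and 43.4 RPKM in day 7 control, 37.1 and 38.6 in day 7 LAMZ, 33.5 and 37.8 in day 14 control and 28.9 and 24.3 in day 14 LAMZ, and was lower with time in LAMZ at -0.50 ± 0.13 (adjusted p = 0.0455), a call held in 6 of 18 alternative settings. Cdk6, a partner of the D cyclins, was at 1.68 and 1.44 RPKM in day 7 control, 2.18 and 2.10 in day 7 LAMZ, 1.61 and 1.61 in day 14 control and 1.15 and 1.01 in day 14 LAMZ. Its log2FC with time was -0.60 ± 0.15 (adjusted p = 0.0325) in LAMZ and 0.03 ± 0.15 in control, where the groups overlapped. The call of Cdk6 in LAMZ was held in 8 of 17 settings. The other 5 genes passed no test. Their log2FC with time in control ran from -0.94 for Ccne1, an E-type cyclin, to -0.33 for Cdk2, with -0.52 for Cdk4, -0.37 for Ccnd3 and -0.63 for Ccne2. Their log2FC in LAMZ was -0.83 for Ccne2, -0.78 for Ccne1, -0.45 for Cdk2, -0.37 for Ccnd3 and -0.27 for Cdk4.

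The last role holds 7 CDK inhibitors and tumour suppressors. In control 0 of them passed the test with time, with a median log2FC of 0.11, and in LAMZ 2 were lower, with a median of -0.04 that turned to 0.06, 0.16 or 0.02 with libraries centred on their median, rescaled to equal sums or quantile normalized. Cdkn1a was the most abundant of the 48 genes in RPKM and was at 75.5 and 66.9 RPKM in day 7 control, 125 and 111 in day 7 LAMZ, 77.8 and 91.4 in day 14 control and 114 and 115 in day 14 LAMZ. The LAMZ libraries were above the control libraries on both days. LAMZ raised it 1.64-fold at day 7, with a log2FC of 0.72 ± 0.13 (adjusted p = 0.0116) in limma. That call was held in 16 of 19 alternative settings. It was lost with libraries rescaled to equal sums, with the 4 libraries of day 7 alone and without day 7 LAMZ replicate 1. At day 14 Cdkn1a was 1.35-fold higher, with a log2FC of 0.44 ± 0.13 (adjusted p = 0.0475), which was 0.07 (adjusted p = 0.671) with libraries rescaled to equal sums. A promoter window is shown because Cdkn1a is a known target of p53. The p53 half-site was searched as RRRCWWGYYY, where R is A or G, W is A or T and Y is C or T. Matches were present in 8.4% of all windows and occurred at 2 places in 1 of the 2 RefSeq windows of Cdkn1a, in capitals. The other window, around chr17:29093609-29093768, held no match. The stretch shown is chr17:29090819-29090978 on the plus strand.
Cdkn1a: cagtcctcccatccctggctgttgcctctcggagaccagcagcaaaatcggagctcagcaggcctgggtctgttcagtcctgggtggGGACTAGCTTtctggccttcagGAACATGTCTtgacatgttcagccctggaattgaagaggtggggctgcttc

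Trp53, the p53 gene itself, was at 19.2 and 17.6 RPKM in day 7 control, 12.9 and 15.9 in day 7 LAMZ, 12.4 and 15.2 in day 14 control and 14.0 and 14.4 in day 14 LAMZ. It passed the test in no comparison, and its LAMZ libraries were below the control libraries at day 7 (log2FC -0.33 ± 0.14, adjusted p = 0.178) and overlapped with them at day 14 (0.04 ± 0.14, adjusted p = 0.853). Rb1, which encodes the retinoblastoma protein, was at 1.37 and 1.20 RPKM in day 7 control, 2.46 and 2.49 in day 7 LAMZ, 1.86 and 1.66 in day 14 control and 1.03 and 1.26 in day 14 LAMZ. Its day 7 LAMZ libraries were the highest and its day 14 LAMZ libraries were below the day 14 control libraries. The LAMZ effect on Rb1 was 0.61 ± 0.15 (adjusted p = 0.0353) at day 7 and -0.36 ± 0.15 (adjusted p = 0.117) at day 14, and the decrease with time in LAMZ was -0.70 ± 0.15 (adjusted p = 0.0196).

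Cdkn2c, which encodes the inhibitor p18 of Cdk4 and Cdk6, was at 12.8 and 8.60 RPKM in day 7 control, 7.77 and 8.93 in day 7 LAMZ, 7.83 and 7.58 in day 14 control and 4.09 and 4.19 in day 14 LAMZ. It was lower in LAMZ than in control at day 14, at -0.76 ± 0.17 (adjusted p = 0.0172), and lower with time in LAMZ, at -0.86 ± 0.17 (adjusted p = 0.0165). The neighbouring inhibitor genes Cdkn2a and Cdkn2b passed no test, with log2FC with time of 0.04 and 0.29 in control and 0.29 and 0.51 in LAMZ. Cdkn1b, the p27 gene, also passed none, at 0.11 in control and -0.13 in LAMZ.

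LAMZ against control at day 7 asked whether the compound altered the cycle genes early in the culture. Of the 48 genes Cdkn1a and Rb1 were called higher and Mcm5 lower. Of the 22 mitotic genes 0 were called in limma (0 also at an unadjusted p under 0.05), and 17 had a log2FC above 0, with a median of 0.12. This sign depended on the scaling, since with each library rescaled to the same sum of RPKM the median was -0.16 and 18 of the 22 were below 0. That scaling moved the median of all tested genes from -0.08 to -0.31 at day 7, from -0.15 to -0.43 at day 14, and from -0.05 to 0.16 in control and -0.11 to 0.03 in LAMZ with time. Centring moved it to 0.03 at day 7 and 0.04 at day 14. Relative to the median of all genes, the mitotic median was 0.16 to 0.20 higher under the deposited values and the 3 other scalings. All 11 replication genes had a log2FC below 0 (8 with centring and 9 with quantile normalization), with a median of -0.23, and relative to all genes their median was -0.15 to -0.18. Mcm5 was the replication gene called, at -0.49 ± 0.13 (adjusted p = 0.0462), and its LAMZ libraries were below its control libraries. Tyms had a larger change that missed the threshold, at -0.57 ± 0.17 (adjusted p = 0.0728).

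At day 7 the LAMZ libraries were all above the control libraries for 14 of the 48 genes, 11 of them mitotic, and all below for 13, 6 of them replication genes, against 20.4% and 35.9% of all tested genes. The 95% interval of a LAMZ effect reached 0.35 log2 units to each side of the estimate in the median of the 48 genes, and 47 of the 48 intervals lay within 1 log2 unit of 0. The largest mitotic estimate was that of Nusap1, with an interval of -0.04 to 0.90. The call of Cdkn1a was held in 16 of 19 alternative settings, that of Rb1 in 5 of 18 and that of Mcm5 in 4 of 19. With each library rescaled to the same sum 11 of the 48 genes were called, all lower. With centring 2 were higher and 0 lower, and with the 4 libraries of the comparison alone 0 were called (7 at an unadjusted p under 0.05).

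**Figure D5:**
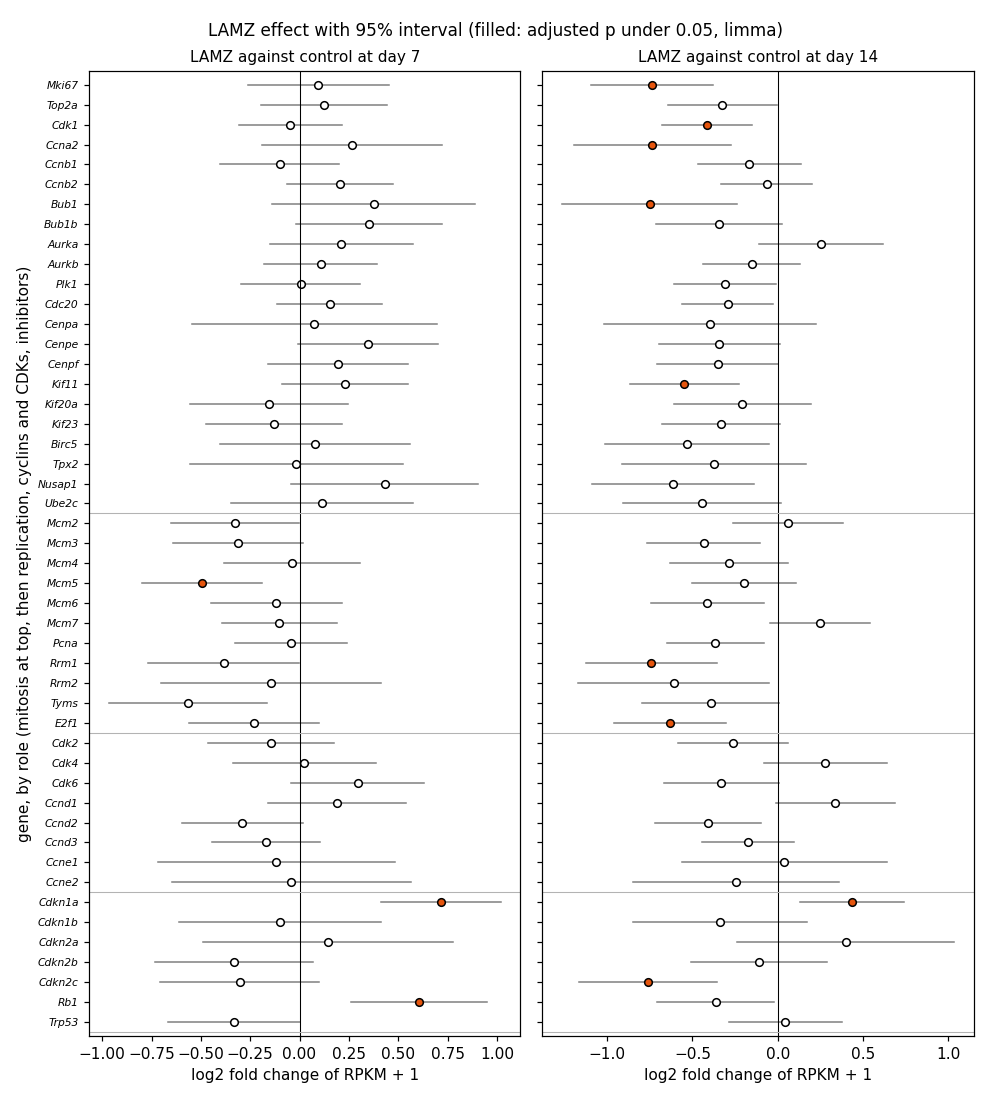
Log2FC of RPKM + 1 between LAMZ and control at day 7 (left) and day 14 (right) for the 48 genes in order of role, with 95% intervals from limma, where filled points passed an adjusted p of 0.05. At day 7 the filled points are Mcm5, Cdkn1a and Rb1, and at day 14 most points of the mitosis and replication rows lie left of 0 and 9 are filled.

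At day 14 the LAMZ libraries were lower than control for most cycle genes, and few of the differences passed the test. Of the mitotic genes 5 of 22 were lower, with a median log2FC of -0.35 over the 22. Of the replication group 2 of 11, Rrm1 and E2f1, were lower, with a median of -0.39, and the median of all tested genes was -0.15. Relative to all genes the mitotic median was -0.18 to -0.20 and the replication median -0.24 to -0.28 under the 4 scalings. The LAMZ libraries were all below the control libraries for 34 of the 48 genes and all above for 5, against 44.2% and 20.1% of all tested genes. The 8 of 48 called lower are a share close to the 16% of all tested genes.

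The genes called lower at day 14 were Mki67 (-0.74 ± 0.16, adjusted p = 0.0121), Rrm1 (-0.74 ± 0.17, adjusted p = 0.0156) and E2f1 (-0.63 ± 0.14, adjusted p = 0.0162), followed by Cdkn2c, Kif11 (-0.55 ± 0.14, adjusted p = 0.0248), Ccna2 (-0.74 ± 0.20, adjusted p = 0.0321), Cdk1 (-0.42 ± 0.11, adjusted p = 0.0332) and Bub1 (-0.75 ± 0.22, adjusted p = 0.0450). Mki67 was at 4.44 ± 1.09 RPKM in control and 2.24 ± 0.166 in LAMZ (SD, n = 2). Rrm1 was at 7.80 ± 0.606 and 4.31 ± 1.09, and E2f1 at 5.59 ± 0.863 and 3.25 ± 0.365. The calls of Mki67 and Rrm1 were held in 17 of 19 alternative settings and those of E2f1 and Cdkn2c in 15 of 19. Those of Ccna2 (11 of 19), Kif11 (9 of 18), Cdk1 (6 of 19), Bub1 (5 of 18) and the higher Cdkn1a (5 of 19) depended on the setting. With libraries centred on their median or quantile normalized, the calls of Ccna2 and Kif11 were lost. Top2a, at -0.33 ± 0.14 (adjusted p = 0.131), and Pcna, at -0.37 ± 0.12 (adjusted p = 0.0671), were not called.

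The count at day 14 rested on single libraries and on the scaling. It was 1 without control replicate 2 or without LAMZ replicate 2 of day 14, 5 without control replicate 1 and 4 without LAMZ replicate 1. With each library centred on its median the calls were 4 higher and 3 lower, and with equal sums 0 higher and 35 lower. The macrophage markers differed between the same libraries, with 15 of 18 lower in LAMZ at day 7 and 17 of 18 at day 14. Many of these markers, such as C1qa and C1qb, passed the filter through control libraries alone, which largely set the direction they could take. In control 14 of the 18 were higher at day 14 than at day 7, while in LAMZ 0 of the 18 passed the test with time (0 at an unadjusted p under 0.05). Their part in the differences between LAMZ and control, and in the decrease with time in control, was not tested. In the 4 LAMZ libraries these markers summed to 7.85 to 9.97 RPKM. The part of cell make-up in the decrease with time in LAMZ was not tested either.

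Whether the LAMZ effect differed between the days was tested as an interaction. Of the 48 genes 0 were called in limma, against 0.623% of all tested genes (0.312% higher and 0.312% lower). At an unadjusted p under 0.05 there were 11 of the 48 (22.9%), beside 16.5% of all tested genes. The smallest adjusted p was that of Rb1, at 0.0897, with a difference of -0.97 ± 0.21 log2 units. Kif11 (-0.78 ± 0.20, adjusted p = 0.121), Mki67 (-0.83 ± 0.22, adjusted p = 0.135) and Bub1 (-1.13 ± 0.32, adjusted p = 0.153) had negative differences that also missed the threshold. The medians of the mitotic genes with time, -1.52 in LAMZ and -0.96 in control, are therefore given as values, and their difference was not called for any gene.

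The calls with time in control depended on the setting. Beside the genes named above, the call of Bub1b was held in 9 of 18 settings and that of Cenpf in 9 of 17. The 23 calls in control fell to 8 without day 14 control replicate 1, 11 without day 7 control replicate 1, 13 or 14 without 1 of the day 7 LAMZ libraries, and 11 without a filter on low values. With the 4 control libraries alone 0 of the 48 and 0 of all genes were called, while 36 of the 48 had an unadjusted p under 0.05 and the smallest adjusted p was 0.1. In LAMZ the count was 25 to 36 in every alternative setting, and 25 of the 36 genes were called in each setting that tested them (a minimum mean of 5 RPKM left out the low genes and gave the count of 25). With the 4 LAMZ libraries alone, 33 were called.

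Other genes of the cycle, taken from 6 lists, were counted in the same fit. Of all tested genes, 4.35% were called higher and 8.49% lower in LAMZ at day 7, and 6.96% and 16% at day 14. Few of the LAMZ counts below stand above this background. With time, 2.4% of all tested genes were called lower in control and 9.26% in LAMZ. Of 68 tested genes of mitosis and cytokinesis beyond the 22, 27 were lower at day 14 in control and 58 in LAMZ, with 0 higher in both, and median log2FC of -0.77 and -1.16. At day 7, 0 of them were called for LAMZ in limma (5 at an unadjusted p under 0.05). At day 14 LAMZ lowered 5, a share below the 16% of all tested genes. Among the 5 were Pbk, a mitotic kinase (-0.75 ± 0.22, adjusted p = 0.0431), Hmmr, a spindle-associated hyaluronan receptor (-0.61 ± 0.18, adjusted p = 0.0448), and Anln, the cytokinesis scaffold anillin (-0.59 ± 0.18, adjusted p = 0.0457). Of 43 tested genes of the replication machinery beyond the 11, 3 were lower with time in control and 14 in LAMZ, with medians of -0.48 and -0.55, and LAMZ lowered 1 at each time, also shares below 8.49% and 16%. These were Fen1, the flap endonuclease (-0.81 ± 0.16, adjusted p = 0.0144 at day 7), and Lig1, the DNA ligase that joins Okazaki fragments (-0.78 ± 0.19, adjusted p = 0.0222 at day 14).

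Of 30 tested genes for nucleotides, chromatin and repair in S phase, 1 was lower with time in control and 12 in LAMZ. The count in control is near the 2.4% of all tested genes, and that in LAMZ stands beside 9.26%. LAMZ lowered 1 at day 7 and 4 at day 14, beside 8.49% and 16% of all tested genes. Uhrf1, which maintains DNA methylation at replication forks, was at 12.5 and 12.7 RPKM in day 7 control, 10.46 and 10.9 in day 7 LAMZ, 4.68 and 5.51 in day 14 control and 3.78 and 2.74 in day 14 LAMZ. Tk1, the thymidine kinase of S phase, was lower in LAMZ at day 14 (-0.63 ± 0.15, adjusted p = 0.0186), as was Atad2 (-0.58 ± 0.15, adjusted p = 0.0305), and the 1 gene lower at day 7 was Zwint, which encodes a kinetochore protein and so does not match the name of the list (-0.76 ± 0.16, adjusted p = 0.0189). The median log2FC of the 30 with time was -0.43 in control and -0.69 in LAMZ.

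The factors that bind E2F and CHR elements were measured as well. Of 15 tested genes for E2F, pocket protein and MuvB factors, 2 were lower with time in control and 6 in LAMZ. Of all tested genes 2.4% and 9.26% were lower in these comparisons. LAMZ raised 1 at day 7 and lowered 2 at day 14, shares near the 4.35% and 16% of all tested genes. Foxm1, a transcription factor of the mitotic genes, was at 5.76 and 4.57 RPKM in day 7 control, 4.93 and 5.07 in day 7 LAMZ, 2.36 and 2.92 in day 14 control and 1.16 and 1.07 in day 14 LAMZ. It had a log2FC of -0.76 ± 0.15 (adjusted p = 0.0314) with time in control, -1.51 ± 0.15 (adjusted p = 0.000997) in LAMZ and -0.78 ± 0.15 (adjusted p = 0.00735) for LAMZ at day 14. E2f5, a repressive E2F, was higher in LAMZ at day 7 (0.74 ± 0.15, adjusted p = 0.0156), and Rbl2, the pocket protein p130, was lower at day 14 (-0.59 ± 0.15, adjusted p = 0.0271).

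Of 17 other cyclin, CDK and regulator genes, LAMZ raised 2 and lowered 1 at day 7 and lowered 2 at day 14. Of all tested genes 4.35% were higher and 8.49% lower at day 7, and 16% were lower at day 14. With time, 1 of the 17 was lower in control and 6 in LAMZ, beside 2.4% and 9.26% of all tested genes. Gas1, a membrane protein first found in growth-arrested cells, was at 49.3 and 25.4 RPKM in day 7 control, 13.1 and 15.0 in day 7 LAMZ, 53.4 and 42.4 in day 14 control and 10.4 and 9.41 in day 14 LAMZ. Its LAMZ libraries were below the control libraries on both days, with -1.28 ± 0.27 (adjusted p = 0.0214) at day 7 and -2.16 ± 0.27 (adjusted p = 0.00133) at day 14. The 2 raised at day 7 were Mnat1, a subunit of the CDK-activating kinase (0.77 ± 0.18, adjusted p = 0.0310), and Fbxw7, the ubiquitin ligase subunit that binds cyclin E (0.69 ± 0.14, adjusted p = 0.0177). Ccng1, cyclin G1, was lower at day 14 (-0.75 ± 0.17, adjusted p = 0.0174).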

How the data were processed

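RNA of cells at day 7 and day 14 with DMSO or LAMZ was sequenced on an Ion Proton, and the authors assigned reads to genes in CLC Genomics Workbench (its settings and strand handling are not given in the sources used here). The deposited values are RPKM, scaled within each library; the submitters' processing notes name build mm10. Of 51826 entries per file, 4 with repeated symbols were dropped. Positions and gene lengths are those of GENCODE M21 (GRCm38). Depth was recovered from the steps between low values of genes with 1 exon: at the chosen number of mapped reads, a whole count (within 0.05 reads) was obtained for 93.4% to 95.9% of 831 to 1421 values per library. A short gene near 1 RPKM thus has few reads, and a long gene has more. Cdk6, with an exon length of 13989 bases, had about 69 reads in its lowest library.

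Groups came from the sample labels, also for day 7 LAMZ replicate 1, whose column header differs in style from the others. Tests used limma 3.58.1 in R 4.3.3 on log2(RPKM + 1), with a mean-variance trend, 4 groups in 1 fit (4 residual degrees of freedom), a minimum of 1 RPKM in 2 or more libraries, two-sided tests, and Benjamini-Hochberg adjustment over 12514 genes at 0.05. A fold change on this scale understates changes of low genes. The fit was also run on simulated data with a common spread for all genes, no change with time and an equal LAMZ effect on both days. Those settings differ from these data, so that run does not vouch for the calls reported here. Values were given for members past the threshold in any comparison, for 7 fixed genes and for the highest member of each role, and for other lists for up to 3 genes called up and 3 down. Members and lists were chosen with earlier results of these data known. Alternatives changed the pseudocount, filter, scaling, trend, libraries and a replicate block. Those for all genes and for single genes over time were added after seeing the data. Same-numbered libraries did not deviate together (correlations of -0.0166 at day 7 and 0.0158 at day 14), so the number is taken as a name.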

Additional observations from a re-analysis of the deposited data

How the results depend on the processing

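No call changed direction under any alternative. The count of the 48 genes called for LAMZ at day 7, 3 with the deposited values, was 1 without a filter on low values, 11 with equal sums of RPKM, 0 with 4 libraries alone, and 0 to 2 when 1 library was left out. The lone library of a group was then assumed to vary like the others. At day 14 the count of 9 became 5 with a pseudocount of 5, 4 without a filter, 35 with equal sums, 5 with quantile normalization, 5 with 4 libraries alone, and 1 to 9 without 1 library. For the change with time the count of 23 in control became 11 without a filter, 0 with 4 libraries alone and 8 to 19 without 1 library, and that of 36 in LAMZ was 26 to 36 without 1 library. For the difference between the days it was 0 throughout. The test without a filter covered more genes. The causes of the other shifts were not tested.

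The replicate numbers share only a number. With a replicate block within each day the LAMZ counts were 1 at day 7 and 5 at day 14, and with a block across all groups they were 2 and 7, with 19 in control and 33 in LAMZ for the change with time. At 3446227 to 5837310 mapped reads and 2 libraries a group, effects under about 0.35 log2 units were within the interval of a typical member, and Bub1 rested on as few as about 7 reads.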

Other observations

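The targets of p53 beyond Cdkn1a did not move in 1 direction. Of 21 tested genes, LAMZ raised 1 and lowered 2 at day 7, and raised 4 and lowered 2 at day 14, with median log2FC of -0.13 and 0.08. Of all tested genes 4.35% were higher and 8.49% lower at day 7, which the counts of that day do not exceed by more than 1 gene, and 6.96% higher and 16% lower at day 14. Pmaip1, which encodes the pro-apoptotic protein Noxa, was at 1.90 and 2.18 RPKM in day 7 control, 5.23 and 5.51 in day 7 LAMZ, 1.69 and 1.42 in day 14 control and 6.29 and 3.72 in day 14 LAMZ, and its LAMZ libraries were above control on both days, with 1.07 ± 0.20 (adjusted p = 0.0131) at day 7 and 1.20 ± 0.20 (adjusted p = 0.00458) at day 14. Sesn2, a stress-induced sestrin, was at 9.85 and 8.14 RPKM in day 7 control, 7.83 and 6.68 in day 7 LAMZ, 9.003 and 10.4 in day 14 control and 19.3 and 18.8 in day 14 LAMZ and was raised at day 14 (0.91 ± 0.14, adjusted p = 0.00306). Gadd45a, a growth arrest and DNA damage gene, was raised at day 14 as well (0.62 ± 0.13, adjusted p = 0.0126). Sesn1, another sestrin, was lower at day 14 (-0.77 ± 0.14, adjusted p = 0.00610), as was Zmat3, an RNA-binding protein gene (-0.48 ± 0.12, adjusted p = 0.0216). Gdf15, a stress-induced cytokine gene (-0.62 ± 0.17, adjusted p = 0.0491), and Plk2, a polo-like kinase gene (-0.46 ± 0.12, adjusted p = 0.0443), were lower in LAMZ at day 7. With time, 2 of the 21 were higher in control, against 2.46% of all tested genes. In LAMZ 6 were higher and 3 lower with time, against 5.1% and 9.26%. Gadd45a was at 1.96 ± 0.13 (adjusted p = 0.000381) with time in LAMZ.

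Other cell type lists were counted in the same fit, where 4.35% of all tested genes were higher and 8.49% lower in LAMZ at day 7. At day 14 these shares were 6.96% and 16%. Of the 12 osteoblast markers LAMZ raised 7 and lowered 0 on each day, with Dmp1, a matrix protein gene of late osteoblasts and osteocytes, at 3.48 ± 0.18 (adjusted p = 5.49e-05) at day 7. Of 6 chondrocyte markers 4 were raised at day 7, and at day 14 4 were raised and 1, Sox9, lowered, with Acan, the aggrecan gene, at 3.01 ± 0.21 (adjusted p = 0.000157) at day 7. Of the adipocyte markers 4 of 6 were tested, and LAMZ lowered 2 at day 7 and 4 at day 14. Of the skeletal muscle markers 2 of 6 were tested, and both were raised at day 14. Of the endothelial markers 1 of 6, Tek, was tested and was lower in LAMZ on both days. Tek was at 1.86 and 1.10 RPKM in day 7 control and 1.42 and 1.41 in day 14 control. In LAMZ it was near the floor, at 0.149 and 0.0815 at day 7 and 0.218 and 0.348 at day 14. Tek, Adipoq and Fabp4 passed the filter through control libraries alone, and Matn1 through LAMZ libraries alone. The filter thus largely set the direction these genes could take.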
